A study of Mus musculus with 8 samples.

Results

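The mitochondrial ribosomal protein genes are the nuclear genes named Mrpl, for the large subunit, and Mrps, for the small subunit, of the ribosome inside mitochondria. They were taken from the deposited expression table by name: every gene symbol made of Mrpl or Mrps, a number and at most 1 letter was a member. This gave 77 of 19688 genes, of which 48 were Mrpl and 29 were Mrps genes. All 77 were annotated as protein-coding, and they lay on 17 chromosomes of the mouse build mm10. All 77 also passed the filter on low values, which asked for 1 FPKM in at least 2 libraries. FPKM is a level per length of transcript: the fragments of a gene, scaled by its transcript length and by the total of the library.

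Mitochondria carry their own genome, which encodes a small set of respiratory chain proteins and the RNA of their ribosome. All proteins of that ribosome are encoded in the nucleus, made in the cytosol and imported, so the large subunit, which joins amino acids, and the small subunit, which reads the mRNA, must both be supplied from outside. In the mouse embryo the blastocyst is the stage at which mitochondria, inherited from the egg and smaller in number per cell with each division, take on more oxidative metabolism.

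The libraries came from mouse blastocysts and fell into 3 groups. The melatonin-vitrified group (3 libraries) held blastocysts frozen to a glass and thawed, with 1e-10 M of the hormone melatonin present in both the freezing and the thawing media. The vitrified group (3 libraries) was frozen and thawed without melatonin, and the fresh group (2 libraries) was never frozen and served as the control. The labels give neither strain, sex, age nor the number of embryos per library, and do not say whether the biosamples were separate animals, pools or cultures, so every p-value measures the spread between these samples, which may be technical. The study description and the sample protocol differ on the library: Smart-seq2 in the first, against poly(A) selection with strand marking and extraction from cell lines in the second. Which applies could not be settled.

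Between 5814500 and 9996000 fragments were estimated to stand behind a library. Trophectoderm markers, the genes of the outer layer of the blastocyst, summed to between 6624 and 11403 FPKM per library, and all 8 reached 1 FPKM in every library. Fresh replicate 1 stood apart from the other 7 libraries: it lay at -52.5 on the first principal component, against -14.2 to 18.4 in the others, and transcripts of the mitochondrial genome made up 11.3% of its summed FPKM, against 4.24% to 6.56% elsewhere. Y-linked transcripts were listed at 0 in vitrified replicates 2 and 3 and above 0 in the other 6 libraries. Values without fresh replicate 1 are given beside the subunit and list medians and beside the fold changes of named members that it moves by over 1.5 times.

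The start regions of these genes are shown first because many hold short sequence motifs that the naming rule did not use. RefSeq windows of 300 bases (250 before and 50 after a transcript start, build GRCm38.p6) were found for 68 of the 77 members, 74 windows in all. Both strands were searched for 7 motifs, and capitals below mark matches of NRF1, ETS and YY1 only. Each window printed holds such a match, while 33 of the 74 member windows held none. Matches of the other motifs, such as CCAAT in Mrps12, are left in small letters. Mrpl42 and Mrpl12 are shown as members with high expression, Mrps12 as a gene that starts 172 bases from the next gene on the other strand, Sars2, and Mrps11 as the member with the lowest adjusted p between vitrified and fresh blastocysts. Mrps11 is also a head-to-head partner of another member, Mrpl46. The window of Mrpl46 (chr7:78783040-78783339, minus strand) held no match of NRF1, ETS or YY1 and is not printed. The windows printed are chr10:95501900-95502199 (minus strand, a YY1 match), chr11:120484387-120484686 (plus strand, an NRF1 match), chr7:28741772-28742071 (minus strand, an ETS match) and chr7:78782881-78783180 (plus strand, a YY1 match on the other strand).
Mrpl42: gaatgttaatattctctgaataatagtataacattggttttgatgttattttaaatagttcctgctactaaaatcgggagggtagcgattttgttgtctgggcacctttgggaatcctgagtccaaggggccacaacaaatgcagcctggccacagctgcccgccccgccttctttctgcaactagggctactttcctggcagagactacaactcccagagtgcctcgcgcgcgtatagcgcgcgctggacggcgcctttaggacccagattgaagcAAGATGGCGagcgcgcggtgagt
Mrpl12: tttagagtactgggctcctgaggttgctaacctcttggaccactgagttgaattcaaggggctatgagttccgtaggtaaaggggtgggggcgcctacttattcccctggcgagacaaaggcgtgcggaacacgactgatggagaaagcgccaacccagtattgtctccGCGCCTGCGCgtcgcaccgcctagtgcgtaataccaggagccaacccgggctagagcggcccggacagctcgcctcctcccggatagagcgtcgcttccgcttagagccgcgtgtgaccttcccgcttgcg
Mrps12: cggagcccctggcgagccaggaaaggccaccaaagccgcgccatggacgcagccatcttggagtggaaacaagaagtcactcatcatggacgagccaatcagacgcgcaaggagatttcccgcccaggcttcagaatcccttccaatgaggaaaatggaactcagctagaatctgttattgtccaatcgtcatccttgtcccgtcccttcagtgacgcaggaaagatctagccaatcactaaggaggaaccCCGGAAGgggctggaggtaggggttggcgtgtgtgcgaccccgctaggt
Mrps11: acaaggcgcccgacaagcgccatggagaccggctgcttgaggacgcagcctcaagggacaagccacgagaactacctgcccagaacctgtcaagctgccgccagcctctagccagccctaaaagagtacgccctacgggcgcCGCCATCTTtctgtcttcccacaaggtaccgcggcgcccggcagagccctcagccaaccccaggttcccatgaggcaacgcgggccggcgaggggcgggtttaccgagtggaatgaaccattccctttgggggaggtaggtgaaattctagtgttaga

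NRF1, the ETS factor GABPA and YY1 are transcription factors known to bind start regions of many nuclear genes for mitochondrial proteins. All RefSeq windows numbered 32851, from 27025 genes, whether or not these were in the expression table. Genes tested here had 9568 windows, from 7630 genes. The NRF1 motif (GCGC, any base, TGCGC) was present in 17.6% of the 74 member windows, against 4.60% of all windows and 10.9% of those of tested genes. The ETS motif CCGGAAG was present in 33.8% of member windows, against 8.86% of all windows and 19.6% of those of tested genes. The YY1 motif AANATGGCG was present in 13.5%, against 2.38% and 5.81%. At least 1 of these 3 motifs was present in 55.4% of member windows, against 14.2% of all windows and 32.1% of those of tested genes. This share was 55.3% of 47 Mrpl windows and 55.6% of 27 Mrps windows, but the single motifs were spread unequally: NRF1 was in 21.3% of Mrpl and 11.1% of Mrps windows, ETS in 29.8% and 40.7%, and YY1 in 10.6% and 18.5%. Other common motifs stood closer to the background. CCAAT was present in 40.5% of member windows, against 37.4% of all windows and 38.9% of those of tested genes. The E-box CACGTG was present in 9.46%, above the 7.15% of all windows and below the 10.4% of those of tested genes, and TGACGTCA in 2.70%, likewise between 1.79% and 3.32%. TATAAA was present in 6.76%, against 13.6% and 6.77%. The median GC content was 58.5% in member windows, 52.7% in all windows and 60.7% in windows of tested genes. Each motif was counted on its own, overlapping windows of 1 gene were all kept, and a match describes letters only.

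Many members start close to a gene that runs the other way. A protein-coding neighbour on the opposite strand started within 1000 bases upstream of 18 of the 77 members (23.4%; 12 Mrpl and 6 Mrps), against 9.07% of 15496 protein-coding genes of the table. Examples are Mrpl49 with Fau, which encodes a cytosolic ribosomal protein, Mrpl30 with Mitd1, and Mrps12 with Sars2, the serine tRNA synthetase of mitochondria. The 15496 genes compared include genes that did not pass the filter on low values, and the share among tested genes was not taken. Mrps11 (chr7:78783119-78792989, plus strand) and Mrpl46 (chr7:78775236-78783531, minus strand), 1 gene of each subunit, overlap head to head and share 173 bases of exon on opposite strands. The sources used here do not say whether the authors' counting used the strand, so fragments from such overlaps cannot be told apart. This touches 27 members with exons opposite another gene's exons. A further limit touches 8 members that share exons with a gene on the same strand, and 24 whose transcript has a match of at least 150 bases at 95% identity elsewhere, where fragments may be split between copies.

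Mitochondrial ribosomal protein genes were expressed well above the typical gene of the blastocyst. Their mean over the 8 libraries had a median of 38.9 FPKM, against 5.79 FPKM for all 10755 tested genes. In 71 of 77 members the mean reached 10 FPKM, and in 13 it reached 100. Mrpl genes had a median level of 44.0 FPKM and Mrps genes of 31.9 FPKM. Of the 13 members at 100 FPKM or more, 10 were Mrpl and 3 were Mrps genes, and of the 6 under 10 FPKM, 1 was an Mrpl gene (Mrpl48) and 5 were Mrps genes (Mrps21, Mrps9, Mrps17, Mrps5 and Mrps36). Those lowest members are named here after their values were seen.

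**Figure D1:**
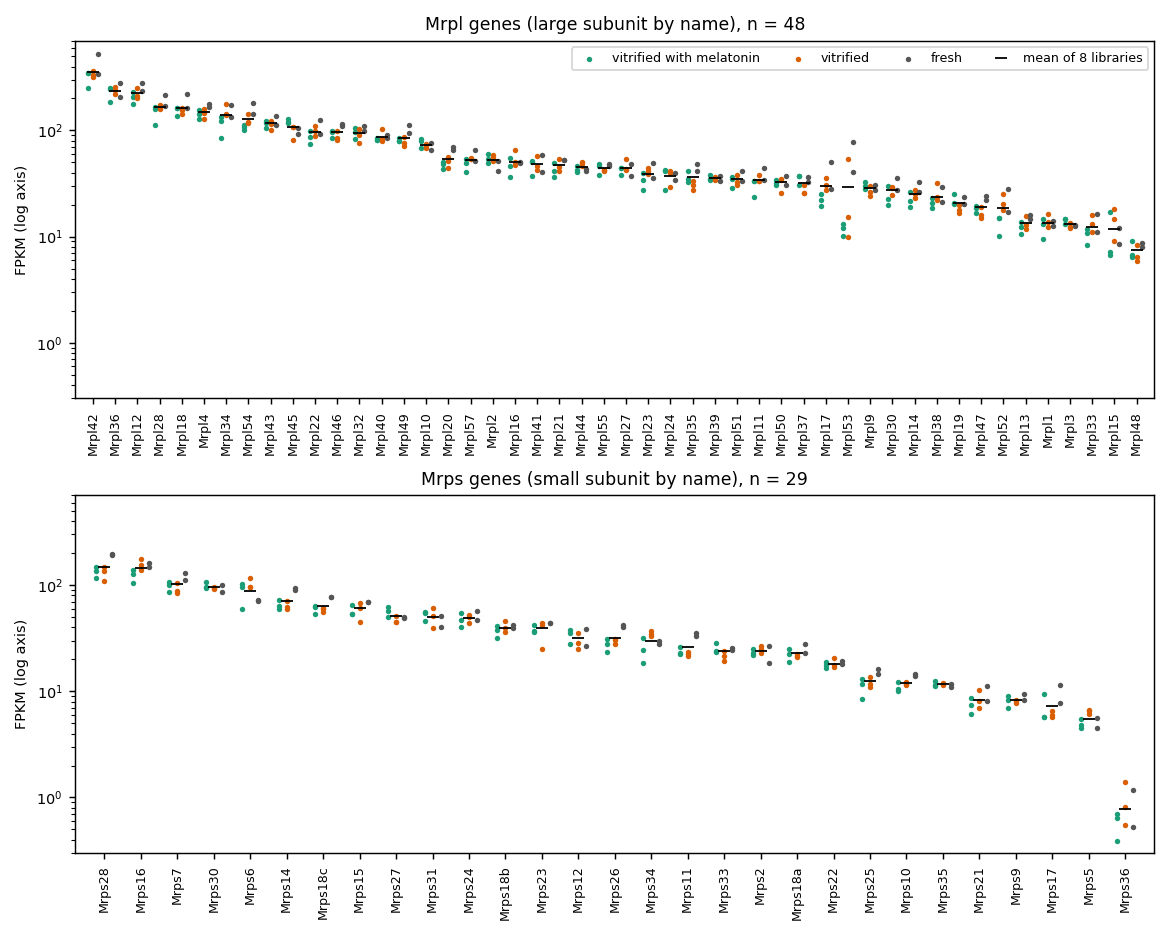
FPKM (log axis) of each of the 48 Mrpl genes (top) and 29 Mrps genes (bottom), ordered by the mean of 8 libraries (black bar), with 1 point per library coloured by group. Most genes lie between 10 and 100 FPKM with points close together, Mrpl53 is spread from 9.97 to 78.0 FPKM, and Mrps36 lies lowest at a mean of 0.771 FPKM.

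Mrpl42, a large subunit protein with no bacterial counterpart, had the highest level of all members. It was listed at 249, 345 and 351 FPKM in the melatonin-vitrified libraries, 319.7, 360.0 and 336 FPKM in the vitrified libraries and 522 and 340.3 FPKM in the fresh libraries. The groups overlapped, with melatonin replicate 1 lowest and fresh replicate 1 highest. Mrpl36, the counterpart of a small zinc-binding protein of the bacterial large subunit, was listed at 187, 247 and 252 FPKM in melatonin-vitrified, 222, 254 and 239 FPKM in vitrified and 278 and 208 FPKM in fresh libraries. The third highest was Mrpl12, which forms the stalk that recruits translation factors, and also binds the mitochondrial RNA polymerase. Its level was 178, 206 and 229 FPKM in melatonin-vitrified, 201, 249 and 213 FPKM in vitrified and 278 and 236 FPKM in fresh libraries. Within each of the 3 groups, the levels of Mrpl36 and Mrpl12 overlapped each other. Between groups, all melatonin-vitrified libraries lay below both fresh libraries in Mrpl12 (-0.33 ± 0.17 SE, limma adjusted p = 0.321), while they overlapped in Mrpl36.

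The proteins of 1 structure did not have equal transcript levels. Mrpl12 is held on the stalk by Mrpl10, and the base of the stalk is Mrpl11. Over 8 libraries Mrpl12 averaged 224 FPKM, Mrpl10 73.3 FPKM and Mrpl11 34.2 FPKM, and the libraries of these 3 genes did not overlap in level. In the bacterial ribosome the stalk holds several copies of the counterpart of Mrpl12 for each copy of the other two. Mrpl3, a core protein near the catalytic centre, averaged 13.3 FPKM with libraries between 12.0 and 14.8 FPKM. Mrpl44, which has the fold of an RNase III enzyme, averaged 45.1 FPKM, and Mrpl41, a protein of mitochondria only, averaged 48.1 FPKM.

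Among Mrps genes, Mrps28, Mrps16 and Mrps7 were highest, at means of 148, 144 and 102 FPKM over 8 libraries. Mrps16 and Mrps7 are counterparts of bacterial small subunit proteins, and Mrps7 sits in the head of the subunit. Mrps12, the protein of the decoding centre, averaged 32.0 FPKM. Mrps5, at the entry of the mRNA channel, was far lower at 5.52 FPKM, with all 8 libraries between 4.48 and 6.60 FPKM. Mrps22, Mrps2 and Mrps34, at 18.2, 23.7 and 29.7 FPKM, lay between these.

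The 3 genes named Mrps18 encode different proteins of 1 family. Mrps18c averaged 63.8 FPKM, Mrps18b 39.3 FPKM and Mrps18a 22.8 FPKM over 8 libraries, and the ranges of the 3 genes did not overlap in level. In the solved structures of the mammalian mitochondrial ribosome, Mrps18a and Mrps30 (95.2 FPKM) are found in the large subunit despite their names. Mrps36 was listed at 0.637, 0.387 and 0.698 FPKM in melatonin-vitrified, 0.810, 0.553 and 1.39 FPKM in vitrified and 1.18 and 0.522 FPKM in fresh libraries. It is now known as a part of the 2-oxoglutarate dehydrogenase complex rather than of the ribosome, and it was the only member with a mean under 1 FPKM. Its transcript has 4 matches elsewhere of up to 309 bases, and their part in its low level was not tested. Moving Mrps18a and Mrps30 to the large subunit and leaving out Mrps36 gives 50 large and 26 small subunit genes by structure.

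Members varied little between libraries. The highest over the lowest library had a median ratio of 1.57 over the 77 members, and 8 members exceeded a ratio of 2. For members with a mean of at least 10 FPKM the median ratio was 1.56, against 1.80 for the 4113 tested genes above the same level. The widest were Mrpl53 (a ratio of 7.82), Mrps36 (3.58), Mrpl52 (2.79), Mrpl15 (2.70) and Mrpl17 (2.56). Counting error was small for members that could be turned into fragments: Mrps28, which has 1 annotated transcript of 783 bases, rested on 623 to 1507 estimated fragments per library.

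Together, the members took 1.02% to 1.21% of the summed FPKM of a library. The share averaged 1.13 ± 0.0991% in melatonin-vitrified (SD, n = 3), 1.14 ± 0.0579% in vitrified (SD, n = 3) and 1.20 ± 0.00280% in fresh blastocysts (SD, n = 2). Vitrified replicate 2, at 1.21%, and melatonin replicate 2, at 1.20%, reached the level of the fresh libraries, so the vitrified group overlapped the fresh group and the melatonin-vitrified group came close to it. In these bulk samples, fewer cells of a type and less RNA per cell cannot be told apart. Transcripts of the mitochondrial genome, which made up 4.52 ± 0.362% of melatonin-vitrified (SD, n = 3), 5.02 ± 0.753% of vitrified (SD, n = 3) and 11.3% and 6.56% of fresh libraries, are part of the denominator. Without them the share was 1.18 ± 0.0998% (SD, n = 3), 1.20 ± 0.0708% (SD, n = 3) and 1.32 ± 0.0514% (SD, n = 2) in the melatonin-vitrified, vitrified and fresh groups.

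The balance of large to small subunit transcripts was steady. The summed FPKM of Mrpl genes over that of Mrps genes was 2.52, 2.59 and 2.56 in the melatonin-vitrified libraries, 2.69, 2.60 and 2.61 in the vitrified libraries, and 2.83 and 2.45 in the fresh libraries. The fresh libraries held both the highest and the lowest ratio, and both frozen groups lay between them. With the subunits set by structure the ratios averaged 2.96 ± 0.0442 in melatonin-vitrified (SD, n = 3), 3.01 ± 0.0811 in vitrified (SD, n = 3) and 2.98 ± 0.267 in fresh blastocysts (SD, n = 2). A sum of FPKM depends on the number of genes summed, so the ratio describes transcripts and not the number of subunits.

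**Figure D2:**
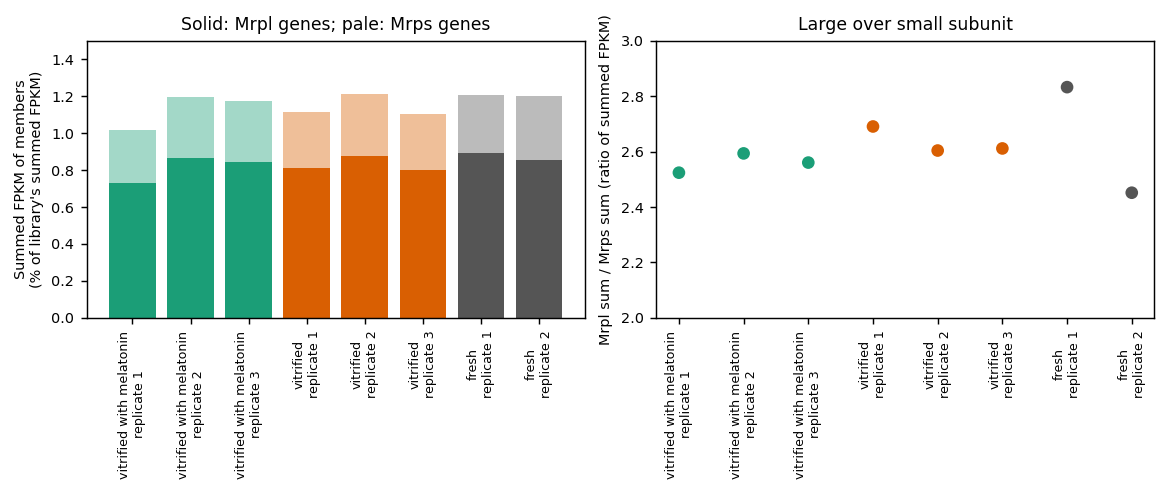
Left, summed FPKM of Mrpl (solid) and Mrps genes (pale) as a percentage of the library's summed FPKM, in 8 libraries coloured by group; right, ratio of the Mrpl sum to the Mrps sum in the same libraries (axis from 2 to 3). Shares lie between 1.02% and 1.21%, and ratios between 2.45 and 2.83, with both extremes of the ratio in the fresh group.

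Single libraries leaned to one side across many members. Melatonin replicate 1 held the lowest value of 41 of the 77 members (53.2%), against 15.1% of all tested genes. Fresh replicate 1 held the highest value of 35 members (45.5%), against 13.6% of all tested genes, while 33.2% of all tested genes were lowest in that library. Relative to each gene's mean over 8 libraries on the log2(FPKM + 1) scale, melatonin replicate 1 had a median deviation of -0.29 over Mrpl and -0.18 over Mrps genes, with 0.00 over all tested genes. Fresh replicate 1 had a median deviation of 0.24 over Mrpl and 0.20 over Mrps genes, with -0.17 over all tested genes. The other 6 libraries lay between -0.08 and 0.11 for either subunit.

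**Figure D3:**
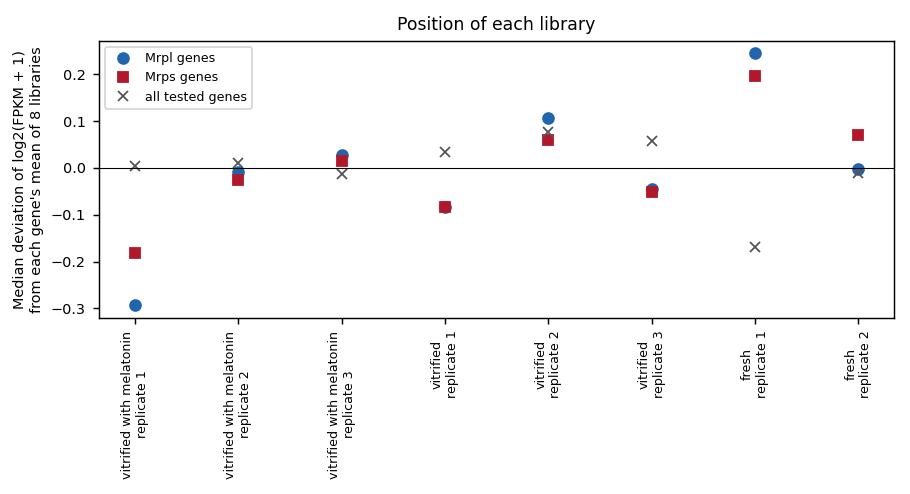
Median deviation of log2(FPKM + 1) from each gene's mean of 8 libraries, for Mrpl genes (circles), Mrps genes (squares) and all tested genes (crosses), in each library. Melatonin replicate 1 is low at -0.29 and -0.18 and fresh replicate 1 high at 0.24 and 0.20 for the subunits, while all tested genes lie at 0.00 and -0.17 in these libraries.

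The comparison of vitrified with fresh blastocysts addresses what freezing and thawing change. Of the 77 members, 0 passed in either direction at an adjusted p below 0.05 (limma on log2(FPKM + 1), Benjamini-Hochberg adjustment over all tested genes), where 0.762% of all tested genes were higher and 0.102% lower. At an unadjusted p below 0.05 the same limma model gave 0 members higher, against 15.6% of all tested genes, and 12 members lower (15.6% of members), against 4.56% of all tested genes. The 12 were 6 Mrpl and 6 Mrps genes. All vitrified libraries lay below both fresh libraries in 21 members, 9 Mrpl and 12 Mrps genes, against 10.6% of all tested genes. They lay above both in 5 members (Mrps6, Mrpl2, Mrps5, Mrpl44 and Mrps34), against 26.4% of all tested genes. The smallest adjusted p of a member was 0.0822 (limma, Mrps11). The count of 12 depended on single libraries: it was 6 without fresh replicate 1 (7.79% of members, against 5.50% of all tested genes), 5 without vitrified replicate 1 (against 3.68%) and 6 without vitrified replicate 3 (against 3.30%). Without fresh replicate 1, with 1 fresh library left, all vitrified libraries lay below it in 28 members (36.4%), against 26.7% of all tested genes. Without fresh replicate 2 they lay below the remaining one in 46 members, against 22.1%, and without vitrified replicate 2 the groups were apart in this direction in 38 members, against 16.1%. The count of members above the fresh libraries was 16 without fresh replicate 1 (against 37.7%) and 9 without fresh replicate 2 (against 49.7%).

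The median log2 fold change of vitrified over fresh was -0.14 over the 48 Mrpl genes and -0.13 over the 29 Mrps genes, against 0.14 over all tested genes and 0.02 over the 4113 tested genes with a mean of at least 10 FPKM. Of the members, 70 of 77 lay below the median of all tested genes, 45 Mrpl and 25 Mrps genes, where 5377 of all 10755 tested genes do by definition. Among the 4113 tested genes with a mean of at least 10 FPKM, 61.3% lay below the same median of all tested genes. Relative to that median the subunits stood at -0.28 (Mrpl) and -0.27 (Mrps). Median ratio scaling of the libraries moved the median of all genes to -0.01, and relative to it the subunits then stood at -0.32 and -0.31. A fold change is given here on the log2(FPKM + 1) scale, which understates the change of low genes. The median half-width of the 95% confidence interval of a single member's fold change was 0.40 on this scale. Without fresh replicate 1 the medians were -0.01 over Mrpl and -0.08 over Mrps genes, with 0.07 over all tested genes and again 0 members called by limma.

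Other measures moved with this comparison. The summed level of 8 epiblast markers, genes of the pluripotent inner cells, was 151 to 201 FPKM in vitrified against 31.4 to 82.9 FPKM in fresh libraries, with 0 of the 8 listed at 0 in every library. The share of mitochondrial genome transcripts was 4.55% to 5.89% in vitrified against 6.56% to 11.3% in fresh libraries. Their part in the difference of the members was not tested.

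Mrps11, a platform protein of the small subunit near the exit of the mRNA, had the lowest fold change of the Mrps genes. Its level was 21.6, 23.5 and 22.5 FPKM in vitrified and 35.2 and 33.0 FPKM in fresh libraries. The groups did not overlap, with every vitrified library well below both fresh ones. The log2 fold change was -0.58 ± 0.15 (SE), with a limma adjusted p of 0.0822, so the difference did not pass. Mrpl46, its head-to-head partner, had 84.0, 99.1 and 81.0 FPKM in vitrified and 115 and 111 FPKM in fresh libraries (-0.36 ± 0.15 SE, limma adjusted p = 0.221). The 173 bases of exon that both genes share lie on opposite strands.

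Mrps28, the counterpart of the bacterial protein S1, was listed at 137, 149 and 109 FPKM in vitrified and 193 and 195 FPKM in fresh libraries. Every vitrified library was lower than both fresh libraries, and the fresh libraries were almost equal. Its log2 fold change was -0.57 ± 0.17 (SE; 95% interval -0.95 to -0.18), with a limma adjusted p of 0.112. Mrps28 shares no exons with another gene and had no near-identical match elsewhere. Mrpl35, the counterpart of bacterial L35, had 27.6, 33.4 and 30.8 FPKM in vitrified and 48.2 and 41.4 FPKM in fresh libraries. It too did not overlap between the groups, and its fold change of -0.54 ± 0.17 (SE) had a limma adjusted p of 0.128. Mrpl35 has 10 matches elsewhere of up to 193 bases.

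At the other end, Mrps6, a platform protein, was listed at 96.0, 116 and 95.1 FPKM in vitrified and 72.7 and 71.5 FPKM in fresh libraries. The groups did not overlap, and the log2 fold change was 0.50 ± 0.23 (SE; limma adjusted p = 0.262). On the same strand, Mrps6 shares 305 bases of exon with Gm49711 and 159 bases with Slc5a3, an inositol transporter gene. Mrps5 had 6.60, 6.08 and 6.48 FPKM in vitrified and 5.64 and 4.48 FPKM in fresh libraries. Here too the groups did not overlap (0.29 ± 0.19 SE, limma adjusted p = 0.418), and a match of 1019 bases lies elsewhere in the genome. Mrpl2, a core protein near the catalytic centre, had 58.4, 55.8 and 51.9 FPKM in vitrified and 41.2 and 51.8 FPKM in fresh libraries (0.25 ± 0.16 SE, limma adjusted p = 0.406). Its highest fresh library lay just under its lowest vitrified library, and without fresh replicate 1 the fold change was 0.092. Mrpl15, another core protein, had 9.16, 18.3 and 14.6 FPKM in vitrified and 8.61 and 12.1 FPKM in fresh libraries, which overlapped (0.37 ± 0.39 SE, limma adjusted p = 0.632). The fold change was 0.15 without fresh replicate 1 and 0.17 without vitrified replicate 2.

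**Figure D4:**
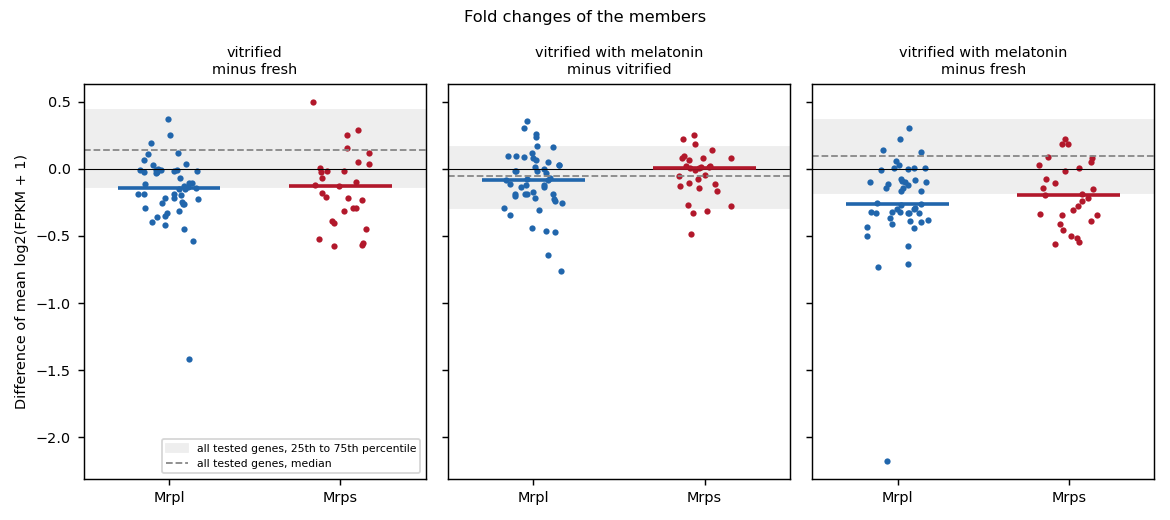
Difference of mean log2(FPKM + 1) for each Mrpl (48) and Mrps gene (29) in the 3 comparisons, with the subunit's median as a horizontal bar, the median of all 10755 tested genes as a dashed line and their middle range (25th to 75th percentile) in grey. The subunit medians are -0.14 and -0.13 for vitrified minus fresh, -0.08 and 0.01 for melatonin-vitrified minus vitrified, and -0.26 and -0.19 for melatonin-vitrified minus fresh; the lowest point in each panel is Mrpl53.

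The comparison of melatonin-vitrified with vitrified blastocysts addresses what melatonin changes in frozen embryos. Of the 77 members, 0 passed in either direction at an adjusted p below 0.05 (limma), where 0.0279% of all tested genes were higher and 0.112% lower. At an unadjusted p below 0.05 the same limma model gave 1 member higher (Mrpl37), against 4.59% of all tested genes, and 2 members lower (Mrpl52 and Mrps34), against 10.2%. The libraries did not overlap in 3 members that were higher with melatonin (Mrpl37, Mrpl45 and Mrpl19), against 9.3% of all tested genes, and in 9 that were lower, 7 Mrpl and 2 Mrps genes, against 15.4%. Mrpl19 is named after its values were seen. Leaving out 1 frozen library at a time gave 0 to 2 members higher and 0 to 4 lower at an unadjusted p below 0.05 (limma). The 2 came without melatonin replicate 1 (2.60% of members, against 3.19% of all tested genes). The 4 came without melatonin replicate 2 (5.19% of members, against 8.44%). Without vitrified replicate 2 both counts were 0, against 2.90% of all tested genes higher and 6.34% lower. With 1 frozen library left out, the groups were apart in 3 to 11 higher and 9 to 16 lower members. The 11 came without melatonin replicate 1 (against 13.6% of all tested genes) and 10 without vitrified replicate 2 (against 13.2%), and the 16 came without melatonin replicate 3 (against 20.6%) and without vitrified replicate 1 (against 24.3%). The median log2 fold change was -0.08 over Mrpl and 0.01 over Mrps genes, against -0.05 over all tested genes, and 38 of 77 members lay below the median of all tested genes. The median half-width of a member's 95% interval was 0.36. Without melatonin replicate 1, the library lowest for most members, the medians were 0.01 over Mrpl and 0.06 over Mrps genes, and 0 members were called by limma.

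Mrpl37, a large subunit protein of mitochondria only, was listed at 30.9, 37.5 and 37.3 FPKM in melatonin-vitrified and 30.5, 26.0 and 25.5 FPKM in vitrified libraries. The groups did not overlap, although melatonin replicate 1 and vitrified replicate 1 were close. The log2 fold change was 0.35 ± 0.15 (SE), with a limma adjusted p of 0.314. Mrpl45, which anchors the ribosome to the inner membrane at the exit of the protein tunnel, had 119, 128 and 120.2 FPKM in melatonin-vitrified and 108, 108 and 81.5 FPKM in vitrified libraries. All melatonin-vitrified libraries were higher (0.31 ± 0.15 SE, limma adjusted p = 0.371). Mrpl52, also known only from mitochondria, had 10.1, 14.8 and 15.0 FPKM in melatonin-vitrified and 17.7, 25.5 and 20.3 FPKM in vitrified libraries. All melatonin-vitrified libraries were lower, melatonin replicate 1 most of all (-0.64 ± 0.23 SE, limma adjusted p = 0.266).

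Among Mrps genes, Mrps34, a protein of mitochondria that is needed for a stable small subunit in mice, had 18.6, 31.9 and 24.7 FPKM in melatonin-vitrified and 34.5, 37.2 and 32.8 FPKM in vitrified libraries. The groups did not overlap (-0.49 ± 0.19 SE, limma adjusted p = 0.285). Mrps34 shares 763 bases of exon with Nme3 on the same strand and 1309 bases with Mapk8ip3 on the other. Mrps16 had 105, 127 and 138 FPKM in melatonin-vitrified and 138, 175 and 153 FPKM in vitrified libraries, which touched at one library of each group (-0.33 ± 0.15 SE, limma adjusted p = 0.350). Mrps27, an RNA-binding protein of the small subunit, had 49.6, 62.0 and 57.1 FPKM in melatonin-vitrified and 51.2, 45.0 and 44.8 FPKM in vitrified libraries, with overlap (0.25 ± 0.14 SE, limma adjusted p = 0.422). Mrps33 had 23.4, 24.1 and 28.3 FPKM in melatonin-vitrified and 19.1, 24.0 and 21.4 FPKM in vitrified libraries, also with overlap (0.22 ± 0.15 SE, limma adjusted p = 0.510).

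The comparison of melatonin-vitrified with fresh blastocysts uses the same 2 fresh libraries as the comparison of vitrified with fresh, so the outcomes are not independent. Of the 77 members, 0 passed in either direction at an adjusted p below 0.05 (limma), where 0.0% of all tested genes were higher and 0.0% lower. At an unadjusted p below 0.05 the same limma model gave 0 members higher, against 11.6% of all tested genes, and 10 members lower, 5 Mrpl and 5 Mrps genes, against 6.82%. All melatonin-vitrified libraries lay below both fresh libraries in 26 members, 15 Mrpl and 11 Mrps genes, against 13.5% of all tested genes. They lay above both in 3 members (Mrpl45, Mrps27 and Mrpl3), against 20.8% of all tested genes. The count of 10 lower members was 6 without fresh replicate 1 (against 4.18% of all tested genes), 20 without fresh replicate 2 (against 8.80%) and 16 without melatonin replicate 3 (against 6.20%). The count below the fresh libraries was 31 without fresh replicate 1 (40.3% of members, against 28.7% of all tested genes), 51 without fresh replicate 2 (against 24.97%) and 39 without melatonin replicate 3 (against 17.6%). The count above them was 8, 10 and 9 without fresh replicate 1, fresh replicate 2 and melatonin replicate 1 (against 29.9%, 45.4% and 26.5%). The median log2 fold change was -0.26 over Mrpl and -0.19 over Mrps genes, against 0.09 over all tested genes and 0.02 over those with a mean of at least 10 FPKM. Of the members, 70 of 77 lay below the median of all tested genes, against 57.1% of tested genes with a mean of at least 10 FPKM. Without fresh replicate 1 the medians were -0.12 over Mrpl and -0.13 over Mrps genes, with 0.01 over all tested genes. Without melatonin replicate 1 they were -0.18 and -0.09, with 0.08 over all tested genes. The median half-width of a member's 95% interval was 0.40. Summed epiblast markers were 149 to 169 FPKM in melatonin-vitrified against 31.4 to 82.9 FPKM in fresh libraries, and their part in these values was not tested.

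Mrps26, a small subunit protein of mitochondria only, was listed at 28.1, 23.6 and 31.4 FPKM in melatonin-vitrified and 42.2 and 40.1 FPKM in fresh libraries. The groups did not overlap (-0.56 ± 0.17 SE, limma adjusted p = 0.162), and 92 matches elsewhere, of up to 433 bases, touch its transcript. Mrps28 had 117, 135 and 147 FPKM in melatonin-vitrified against the fresh values given above, again without overlap (-0.55 ± 0.17 SE, limma adjusted p = 0.169). Mrpl17, a protein at the exit of the large subunit's tunnel, had 19.5, 22.4 and 25.1 FPKM in melatonin-vitrified and 50.1 and 28.0 FPKM in fresh libraries. The groups did not overlap, with fresh replicate 1 far above the rest (-0.73 ± 0.25 SE, limma adjusted p = 0.185). Its fold change was -0.32 without fresh replicate 1 (limma adjusted p = 0.633) and -1.14 without fresh replicate 2 (limma adjusted p = 0.0321). The fresh library that then stands alone for its group is assumed to vary like the other groups, and 565 genes in all passed limma without fresh replicate 2.

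Higher values with melatonin than in fresh libraries were found in few members. Mrpl45 had 119, 128 and 120.2 FPKM in melatonin-vitrified and 106 and 92.1 FPKM in fresh libraries, without overlap (0.30 ± 0.17 SE, limma adjusted p = 0.362). Mrpl2 had 49.8, 53.4 and 59.5 FPKM in melatonin-vitrified libraries, which overlapped the fresh ones (0.22 ± 0.16 SE, limma adjusted p = 0.488; 0.061 without fresh replicate 1). Mrps27 had 49.6, 62.0 and 57.1 FPKM in melatonin-vitrified and 48.9 and 49.6 FPKM in fresh libraries, which came close without overlap (0.18 ± 0.15 SE, limma adjusted p = 0.555). Mrps6 had 59.7, 96.4 and 103 FPKM in melatonin-vitrified libraries, on both sides of its fresh values (0.22 ± 0.23 SE, limma adjusted p = 0.641).

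Mrpl53 (chr6:83109040-83109939, plus strand, 790 bases of exon), a large subunit protein of mitochondria only, had the lowest fold change in all 3 comparisons and is uncertain. It was listed at 12.0, 10.0 and 13.1 FPKM in melatonin-vitrified, 54.2, 15.1 and 9.97 FPKM in vitrified and 40.3 and 78.0 FPKM in fresh libraries. The fresh libraries and vitrified replicate 1 were high and the other 5 libraries low, so the vitrified libraries lay on both sides. The log2 fold changes were -1.42 ± 0.57 (SE) for vitrified minus fresh, -0.76 ± 0.51 (SE) for melatonin-vitrified minus vitrified and -2.18 ± 0.57 (SE) for melatonin-vitrified minus fresh, with limma adjusted p of 0.206, 0.511 and 0.143. These values leaned on single libraries. Without vitrified replicate 1 they were -2.10 for vitrified minus fresh and -0.075 for melatonin-vitrified minus vitrified, and without vitrified replicate 3 they were -0.94 and -1.24. With the presence of Y-linked transcripts as a covariate, vitrified replicate 1 alone stood for its group, since only vitrified replicates 2 and 3 lacked them. The difference between vitrified and fresh was then -0.048, and that between melatonin-vitrified and vitrified was -2.13. An overlapping gene that the table lists as Ccdc142 shares 695 bases of exon with Mrpl53 on the same strand. That gene was listed at 16.7, 24.1 and 22.4 FPKM in melatonin-vitrified, 6.05, 20.8 and 18.4 FPKM in vitrified, and 22.9 and 0 FPKM in fresh libraries. The libraries in which Mrpl53 was highest, fresh replicate 2 and vitrified replicate 1, were those in which the overlapping gene was lowest. Whether the difference lies in how fragments of the shared exons were assigned was not tested.

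**Figure D5:**
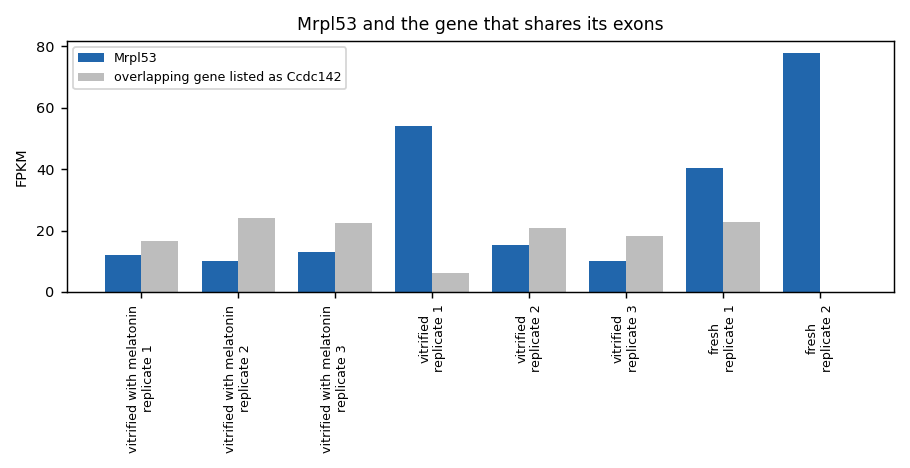
FPKM of Mrpl53 (blue) and of the overlapping gene listed as Ccdc142 (grey) in each library, groups from melatonin-vitrified at the left to fresh at the right. Mrpl53 is highest in fresh replicate 2 (78.0 FPKM) and vitrified replicate 1 (54.2 FPKM), where the overlapping gene is at 0 and 6.05 FPKM.

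Other genes of mitochondrial translation were set beside the members from lists. Proteins of the same ribosome that carry other names (Dap3, Chchd1, Aurkaip1, Ptcd3, Gadd45gip1 and Ict1) had 0 of 6 called by limma in each comparison, with 0 at an unadjusted p below 0.05 except for 2 lower between melatonin-vitrified and fresh. Chchd1, a small subunit protein, had 187, 200.2 and 209 FPKM in melatonin-vitrified, 201, 235 and 229 FPKM in vitrified and 279 and 246 FPKM in fresh libraries. Dap3, which binds GTP in the small subunit, averaged 23.2 ± 3.71 FPKM in melatonin-vitrified (SD, n = 3), 24.8 ± 1.28 FPKM in vitrified (SD, n = 3) and 21.3 ± 0.677 FPKM in fresh blastocysts (SD, n = 2). The median log2 fold change of these 6 genes was -0.13 for vitrified over fresh, -0.11 for melatonin-vitrified over vitrified and -0.26 for melatonin-vitrified over fresh. Without fresh replicate 1 it was 0.083 for vitrified over fresh and -0.15 for melatonin-vitrified over fresh.

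Factors that work with the ribosome had positive medians in all 3 comparisons. Between vitrified and fresh blastocysts the median log2 fold change was 0.06 over 15 translation factors, 0.09 over 26 genes of ribosome assembly and rRNA modification, 0.30 over 18 tested aminoacyl-tRNA synthetases and 0.21 over 14 genes of mitochondrial transcription and RNA stability, against 0.14 over all tested genes. For melatonin-vitrified over vitrified the 4 medians were 0.05, 0.05, 0.05 and 0.09, against -0.05 over all tested genes and -0.05 over the 77 members. For melatonin-vitrified over fresh they were 0.24, 0.12, 0.25 and 0.34, against 0.09 over all tested genes. Without fresh replicate 1 the medians for vitrified over fresh were 0.07, 0.12, 0.18 and 0.09, against 0.07 over all tested genes, and those for melatonin-vitrified over fresh were 0.12, 0.09, 0.14 and 0.28, against 0.01. In each of these lists 0 genes were called by limma in each of the 3 comparisons, while at an unadjusted p below 0.05 limma gave 0 to 3 genes higher and 0 to 1 lower per list and comparison. Without fresh replicate 2, limma called 2 synthetases higher in each comparison with fresh and 2 genes of transcription and RNA stability higher between melatonin-vitrified and fresh. Among the assembly genes Mpv17l2, which is needed for assembly, had 146, 129.7 and 138 FPKM in vitrified and 192 and 208 FPKM in fresh libraries, without overlap, and a limma adjusted p of 0.0840. The regulators of nuclear genes for mitochondria, among them Gabpa and Yy1, had 0 of 8 tested genes called by limma in each comparison, with 0 to 2 higher and 0 lower at an unadjusted p below 0.05.

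The messages that this ribosome translates are the 13 proteins of the mitochondrial genome. Their median log2 fold change was -0.80 for vitrified over fresh, -0.44 for melatonin-vitrified over vitrified and -1.12 for melatonin-vitrified over fresh. The medians against fresh leaned on fresh replicate 1. Without it they were -0.18 for vitrified and -0.56 for melatonin-vitrified over the remaining fresh library, and without fresh replicate 2 they were -1.38 and -1.62. Fresh replicate 2 lay below all vitrified libraries in mt-Nd1, mt-Nd3 and mt-Nd4l, subunits of complex I, and within their range in mt-Co2, mt-Co3 and mt-Atp8. In mt-Nd3 the levels were 79.8, 142 and 114 FPKM in vitrified and 331 and 35.6 FPKM in fresh libraries. Of the 13, limma called mt-Atp6, a subunit of ATP synthase whose gene overlaps mt-Atp8, in both comparisons that involve the vitrified group. It called 0 between melatonin-vitrified and fresh, where 12 were lower at an unadjusted p below 0.05, against 6.82% of all tested genes. At that p, 8 of the 13 were lower between vitrified and fresh, against 4.56% of all tested genes. All 13 had a log2 fold change below 0 in this comparison, and 9 of the 13 did without fresh replicate 1. The level of mt-Atp6 was 4106, 3849.8 and 3619 FPKM in melatonin-vitrified, 1348, 1826 and 1253 FPKM in vitrified and 3997 and 6003 FPKM in fresh libraries. The vitrified libraries were the lowest, with log2 fold changes of -1.75 ± 0.21 against fresh and 1.40 ± 0.19 for melatonin-vitrified over vitrified (SE; limma adjusted p = 0.0324 and 0.0280). Both calls ended when single libraries were left out. Against fresh, the limma adjusted p of mt-Atp6 was 0.0558 without melatonin replicate 3, 0.0556 without vitrified replicate 1 and 0.114 without vitrified replicate 3. For melatonin-vitrified over vitrified it was 0.112, 0.129 and 0.126 without melatonin replicates 1, 2 and 3, 0.0591 without vitrified replicate 1 and 0.159 without vitrified replicate 3. The fold change without each library was between -2.04 and -1.46 against fresh and between 1.30 and 1.57 for melatonin-vitrified over vitrified. For members of the ribosome limma called 0 in these same comparisons; the difference between the messages and the ribosomal proteins was not tested.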

How the data were processed

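RNA of 8 mouse blastocyst libraries in 3 groups was analysed from 1 table of FPKM deposited by the authors, on build mm10 per the submitters' processing notes; the aligner, the counting tool and the annotation were not given in the sources used here, nor were strand use and filters. Groups and replicate numbers come from the biosample descriptions. Members and gene lists were chosen with earlier results of these data known.

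Tests used limma 3.58.1 (eBayes with trend, two-sided) under R 4.3.3, fitted to log2(FPKM + 1) of all libraries at once, with 3 groups. Genes reaching 1 FPKM in at least 2 libraries were tested (10755; 8933 were not), with Benjamini-Hochberg adjustment over all of them and calls below 0.05. The model was run on simulated data with changes larger than those of nearly all members. How often changes of the members' size would be called was not tested. Fragments were estimated from the FPKM of 4978 genes with 1 transcript in GENCODE M21, where 94.3% to 96.6% of low values were whole within 0.1. Such estimates cover fragments assigned to genes, and intervals from them would cover counting error only. Loci and exons came from the same annotation, promoter windows from RefSeq. Tables and plots used Python 3.11.15, pandas 2.3.3 and matplotlib 3.10.9.

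Members named are, per comparison and subunit, the 2 highest and 2 lowest fold changes with a mean of at least 5 FPKM, the 3 highest levels per subunit and genes chosen for their role; from other lists, called genes and those with the smallest p. Alternatives were other scalings, filters, pseudocounts, fits of fewer groups, replicate blocks, subunits by structure, each library left out, and, added after seeing the data, presence of Y-linked transcripts as a covariate.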

Additional observations from a re-analysis of the deposited data

How the results depend on the processing

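No member was called by limma in any of the 3 comparisons under any alternative except 1: without fresh replicate 2, 1 member (Mrpl17, lower) was called between melatonin-vitrified and fresh, so that leaving out single libraries gave 0 to 1. Of 384 alternatives of the 24 named fold changes, 382 kept direction and side of the threshold, and 1 turned. With Y-linked transcripts as a covariate Mrpl15 was at -0.14 between vitrified and fresh, where the value without it was 0.37. These transcripts were absent only from vitrified replicates 2 and 3, so vitrified replicate 1 alone then stood for its group. The sizes were less steady: 20 of the 24 moved by over 1.5 times under at least 1 alternative, 14 of them when a library was left out. The vitrified over fresh medians became -0.34 (Mrpl) and -0.32 (Mrps) with median ratio scaling and -0.27 (Mrps) with quantile normalization. Leaving out single libraries gave -0.25 to -0.0080 (Mrpl) and -0.22 to -0.079 (Mrps). For melatonin-vitrified over fresh, the Mrps median became -0.31 with median ratio scaling and lay between -0.29 and -0.086 with single libraries left out. By structure the ratio of subunit sums was 2.96 in melatonin-vitrified, 3.01 in vitrified and 2.98 in fresh libraries, as the 2 reassigned genes imply. Without mitochondrial transcripts in the denominator the share was 1.20% in vitrified and 1.32% in fresh libraries. The deviations of same-numbered libraries from their group means had r between -0.11 and 0.12. With 2 or 3 libraries a group, these values cannot show whether the numbers pair libraries. A replicate block by biosample number gave medians of -0.17 (Mrpl) and -0.16 (Mrps) for vitrified over fresh, with 0 members called. One by title number gave -0.33 and -0.31, and 0.077 and 0.11 for melatonin-vitrified over vitrified (Mrpl and Mrps). Fresh replicate 2, vitrified replicate 2 and melatonin replicate 1 share their title number with no other library. The title block therefore drops them from the comparisons, and fresh replicate 1 alone stands for its group. Under that block Mrpl53 was at -0.25 between vitrified and fresh. The median half-width of the 95% interval of a member's fold change against fresh was 0.40, with 2 or 3 libraries a group. Library totals were estimated at 5814500 to 9996000 fragments. Fragments of single members were estimated only for Mrpl34, Mrpl50 and Mrps28, so how far depth limits low or short members was not tested.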
